A study of Mus musculus with 6 samples.

Results

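Lymphocytes and plasma cells were followed in aged mouse liver through 10 marker genes, chosen by name from 54115 annotated genes. *Ptprc* marks all leukocytes, *Cd3e*, *Cd4* and *Cd8a* mark T cells, *Nkg7* and *Ccl5* mark cytotoxic T cells and natural killer (NK) cells, *Cd79a* marks B cells, and *Jchain*, *Igkc* and *Ighm* encode parts of antibodies. The genes were picked with their genotype comparison in these livers already known. Their differences between genotypes are therefore given as values with standard errors and without a test. Liver RNA came from 3 wild-type (WT) mice and 3 *Sirt7* KO mice, all male, 24 months old and fasted for 16 h, with 1 liver per library. The knockout was inherited through the germline, on a C57BL/6J background, and WT mice were littermates from crosses of heterozygotes. SIRT7 is a deacetylase of the sirtuin family. *Sirt7* itself, as a check of the labels, stood at 49.3 ± 5.19 CPM (SD, n = 3) for WT and 37.0 ± 7.34 CPM (SD, n = 3) for *Sirt7* KO, with every *Sirt7* KO mouse below every WT mouse, and the log2 fold change of -0.41 had an adjusted p of 0.423 by edgeR's quasi-likelihood test. The difference did not pass the test, and the labels were used as given.

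CPM (counts per 1000000 reads of the library) were scaled by TMM factors. The libraries held 9994860 to 13424776 reads assigned to transcripts, and a count of 0 still allows 3 reads, a mean of 0.249 CPM in the WT livers. The cDNA was amplified from a very small amount of RNA without molecular identifiers named in the methods, so counting intervals cover counting error only. All leukocyte RNA was rare beside that of hepatocytes. The 10 genes together held 238 to 620 reads per liver, whereas *Alb*, the albumin gene of hepatocytes, alone held 224982 to 350630. In whole liver, fewer cells of a type and less RNA per cell cannot be told apart.

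A B cell joins 1 V segment of many to build its light chain and another to build its heavy chain, and its descendants keep that choice. The first constant region used is μ (*Ighm*) with δ (*Ighd*), and class switching replaces it by γ (*Ighg1*, *Ighg2b*, *Ighg2c*, *Ighg3*), ε (*Ighe*) or α (*Igha*). Plasma cells secrete the antibody, and the J chain links IgA and IgM units into polymers. T cells carry the CD3 complex with CD4 or CD8 as co-receptor. NK cells and cytotoxic T cells carry granules that hold the NKG7 protein and secrete the chemokine CCL5. Liver sinusoids house many NK and T cells, and IgA plasma cells of the gut and liver feed IgA into bile.

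The V segments of 1 liver stood apart from those of the others, and the germline sequences of both segments are therefore shown. In *Sirt7* KO mouse 3, *Igkv1-135* held 116 of 227 kappa V reads and *Ighv1-19* held 29 of 72 heavy V reads. The last 300 bases of their V exons are given 5′ to 3′ on the coding strand from the GENCODE M21 transcripts of GRCm38, at chr6:67610209-67610508 on the plus strand and chr12:114708648-114708947 on the minus strand. Capitals mark bases covered by at least 1 word of 31 bases that occurs in no other gene of that annotation, and lower case marks bases that only words shared with other genes cover.
Igkv1-135: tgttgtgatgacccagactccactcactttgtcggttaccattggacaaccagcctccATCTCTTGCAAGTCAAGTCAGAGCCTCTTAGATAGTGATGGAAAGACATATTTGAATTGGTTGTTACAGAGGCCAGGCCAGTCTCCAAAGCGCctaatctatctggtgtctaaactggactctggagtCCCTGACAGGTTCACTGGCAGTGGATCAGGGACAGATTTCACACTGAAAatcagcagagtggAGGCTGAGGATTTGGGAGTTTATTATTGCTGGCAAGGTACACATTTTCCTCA
Ighv1-19: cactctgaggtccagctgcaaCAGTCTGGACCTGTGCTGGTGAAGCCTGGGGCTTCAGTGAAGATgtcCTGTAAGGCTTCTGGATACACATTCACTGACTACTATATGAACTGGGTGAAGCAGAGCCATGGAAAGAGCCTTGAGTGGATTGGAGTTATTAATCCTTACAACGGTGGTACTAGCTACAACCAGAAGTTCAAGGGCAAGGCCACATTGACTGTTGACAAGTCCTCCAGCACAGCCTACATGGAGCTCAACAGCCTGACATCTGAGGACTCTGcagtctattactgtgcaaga
Of the 270 words in each stretch, 37.8% were found only in *Igkv1-135* and 55.9% only in *Ighv1-19*. The nearest other segment was *Igkv1-133* for the former, with 289 identical bases of 300, and *Ighv1-26* for the latter, with 288 of 300. In *Sirt7* KO mouse 3, *Igkv1-133* had 0 reads and *Ighv1-26* had 3 reads. These are reference sequences and not the sequences of the antibodies in this liver, whose joined and mutated forms were not analysed here.

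Among the 10 genes, *Igkc* was by far the highest per length of transcript. In TPM, which corrects for length, *Igkc*, the constant region of the κ light chain, averaged 71.2 over the 6 livers and *Ighm* averaged 5.91. *Ccl5* averaged 2.99 TPM, *Jchain* 2.16, *Nkg7* 2.02, *Cd3e* 0.633, *Cd79a* 0.572, *Ptprc* 0.408, *Cd4* 0.211 and *Cd8a* 0.0465. Only *Igkc* stood clear of the next gene. It ranged from 29.5 to 112 TPM over the livers and *Ighm* from 3.56 to 7.74. *Ccl5* ranged from 0.512 to 5.67, *Jchain* from 0.767 to 3.66 and *Nkg7* from 0.765 to 4.10, and these overlapped each other, while *Ccl5* and *Nkg7* reached into the range of *Ighm*. *Cd3e*, *Cd79a*, *Ptprc* and *Cd4* overlapped each other in the same way. Between 87.8% and 100% of the 31-base words of each gene's most used isoform were found in no other gene.

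Only *Cd4* separated the genotypes. Of the 10 genes, 9 had overlapping values in WT and *Sirt7* KO livers. Among all 12524 genes with enough reads to be tested, 16.8% had groups without overlap, and these were higher in *Sirt7* KO mice for 8.74% and lower for 8.09% of all tested genes. Of the 10 genes, 6 passed the filter on low counts (*Ptprc*, *Nkg7*, *Ccl5*, *Jchain*, *Igkc* and *Ighm*). *Cd4*, *Cd3e*, *Cd8a* and *Cd79a* had too few reads for the filter, so the shares above do not cover them. Among all 15357 genes below the filter with at least 1 read, 4.75% had groups without overlap. In *Sirt7* KO mice 2.43% of these genes were higher and 2.32% lower. The highest value of a gene fell in WT mouse 1 for 4 genes, in WT mouse 2 for 1, in WT mouse 3 for 2, in *Sirt7* KO mouse 1 for 1 and in *Sirt7* KO mouse 3 for 2. No liver was thus high for all of them.

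**Figure D1:**
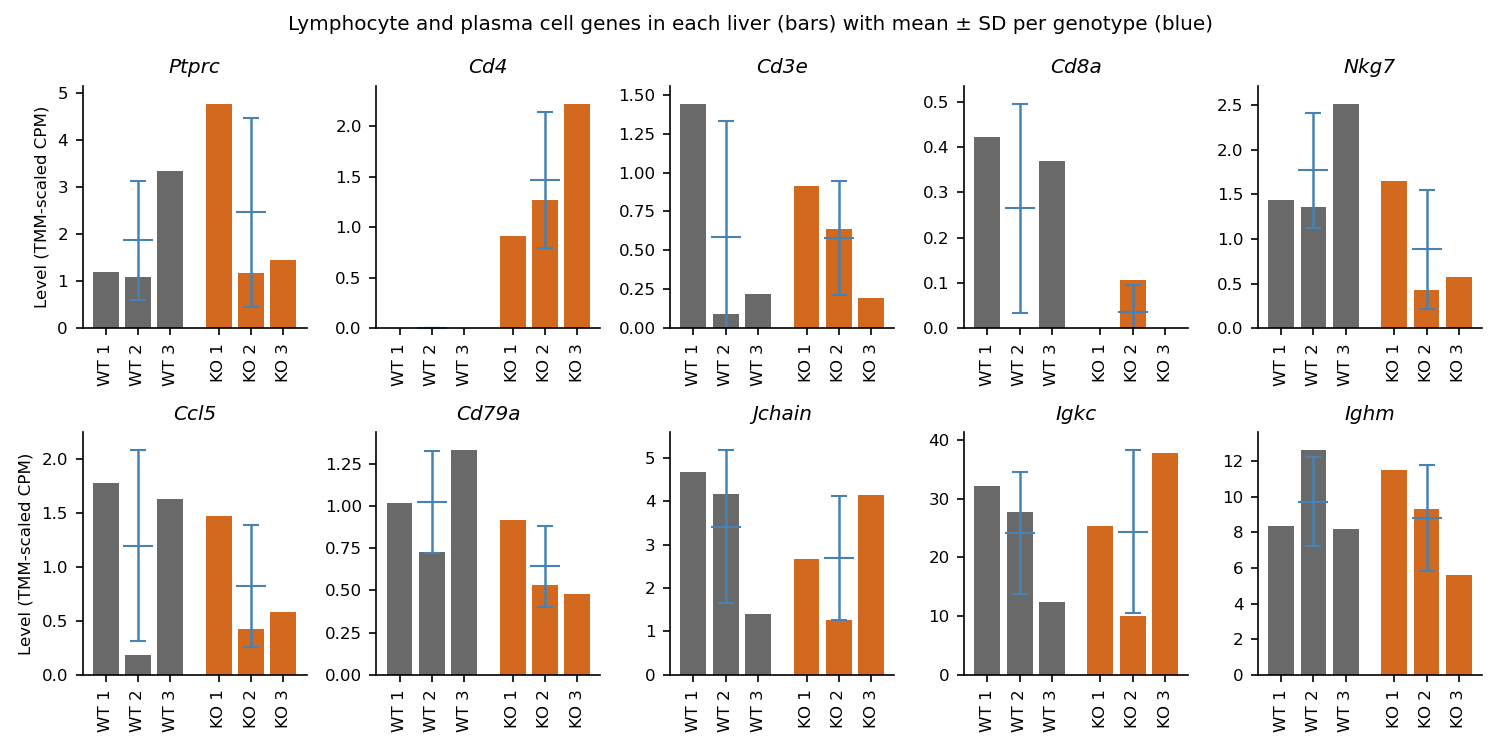
Level of each of the 10 genes in each liver, in TMM-scaled CPM with a separate scale per gene (grey bars, WT; orange bars, *Sirt7* KO; blue, mean ± SD of 3 livers). *Cd4* is the gene without reads in WT livers, and for the other 9 genes the bars of the genotypes overlap in height.

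*Ptprc* (ENSMUSG00000026395.16, chromosome 1, 138062861 to 138175708, minus strand) encodes CD45, the tyrosine phosphatase on the surface of all leukocytes. It had 14, 12 and 45 reads in WT mice 1, 2 and 3, and 52, 11 and 15 reads in *Sirt7* KO mice 1, 2 and 3. WT mouse 3 and *Sirt7* KO mouse 1 were high, and the other 4 livers lay between 1.09 and 1.45 CPM. The means were 1.87 ± 1.27 CPM (SD, n = 3) for WT and 2.46 ± 2.0 CPM (SD, n = 3) for *Sirt7* KO, a log2 fold change of 0.39 (standard error 0.66). Without *Sirt7* KO mouse 1 it was -0.52. Salmon placed 18.9% of the *Ptprc* reads on isoforms annotated with a retained intron, and most of the rest on 1 coding isoform of 4611 bases.

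*Cd4* (ENSMUSG00000023274.14, chromosome 6, 124864692 to 124888221, minus strand) encodes the co-receptor of helper T cells. It had 0 reads in each WT liver and 10, 12 and 23 reads in *Sirt7* KO mice 1, 2 and 3. Every *Sirt7* KO liver was thus above every WT liver. The mean of 1.47 ± 0.672 CPM (SD, n = 3) for *Sirt7* KO was at least 5.89-fold higher than the floor of 3 reads per WT library. All 45 reads were assigned to the coding isoform *Cd4-201*, of whose 31-base words 99.6% were found in no other gene, while the 11 shared words occur in 281 other genes. Where on the transcript the reads fell was not analysed here. At this level such zeros were not unique to *Cd4*. Of 1739 genes with 30 to 60 reads over the 6 livers, 10 (0.575%) had 0 reads in all WT livers and 9 (0.518%) had 0 in all *Sirt7* KO livers. With the lowest *Cd4* count of *Sirt7* KO livers taken as the cut, 3 of all 54115 genes had 0 reads in all WT livers and at least 10 in each *Sirt7* KO liver, namely *Cd4*, *Gm5096* and *Gm5640*, and the reverse pattern was seen for 2 genes, *Gm45193* and *Gm49273*. These 4 *Gm* genes were chosen after their values were seen. *Cd4* did not pass the filter of the main test, and with 0 reads in every WT liver its fold change has no value other than this bound.

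*Cd3e* and *Cd8a* did not separate the genotypes. *Cd3e* (ENSMUSG00000032093.7, chromosome 9, 44998740 to 45009627, minus strand), the ε chain of the CD3 complex that every T cell carries, had 17, 1 and 3 reads in WT mice 1, 2 and 3 and 10, 6 and 2 reads in *Sirt7* KO mice 1, 2 and 3. Its means were 0.584 ± 0.744 CPM (SD, n = 3) and 0.581 ± 0.365 CPM (SD, n = 3). The CD3 chains and T cell receptor constant regions (7 genes, *Cd3e* included) summed to 6.86, 2.09 and 4.51 CPM in WT livers and 3.85, 2.01 and 2.12 CPM in *Sirt7* KO livers, so the genotypes overlapped. *Cd8a* (ENSMUSG00000053977.13, chromosome 6, 71373427 to 71379173, plus strand), of the co-receptor of cytotoxic T cells, had 5, 0 and 5 reads in WT livers and 0, 1 and 0 in *Sirt7* KO livers. These counts do not separate the genotypes at this depth. T cell receptor V segments were almost unseen, with 28 reads over the 6 livers on 17 of 129 segments and at most 5 on any segment, so the T cell repertoire could not be described. Over the livers *Cd4* and *Cd3e* had a Pearson r of -0.02 (exact permutation p = 0.933, adjusted p = 0.986) and a Spearman rho of -0.09 (exact permutation p = 0.883). Which cells carried the *Cd4* reads cannot be told from bulk RNA.

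*Nkg7* (ENSMUSG00000004612.9, chromosome 7, 43437073 to 43438249, plus strand) and *Ccl5* (ENSMUSG00000035042.2, chromosome 11, 83525778 to 83530518, minus strand) had lower means in *Sirt7* KO mice but overlapped. *Nkg7* had 17, 15 and 34 reads in WT livers and 18, 4 and 6 in *Sirt7* KO livers, with means of 1.77 ± 0.645 CPM (SD, n = 3) and 0.883 ± 0.667 CPM (SD, n = 3). *Sirt7* KO mouse 1 lay above WT mice 1 and 2. The log2 fold change of *Nkg7* was -0.99 (standard error 0.61), and it was -1.80 without *Sirt7* KO mouse 1. *Ccl5* had 21, 2 and 22 reads in WT livers and 16, 4 and 6 in *Sirt7* KO livers. WT mouse 2 was the lowest of all 6 livers, and the log2 fold change of -0.53 (standard error 0.80) was smaller than its error. Over the livers *Ccl5* varied from 0.181 to 1.78 CPM and *Nkg7* from 0.424 to 2.51 CPM.

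*Cd79a* (ENSMUSG00000003379.7, chromosome 7, 24897381 to 24902197, plus strand), a signaling chain of the B cell receptor, had 12, 8 and 18 reads in WT livers and 10, 5 and 5 reads in *Sirt7* KO livers. *Sirt7* KO mouse 1 overlapped the WT range, and the means were 1.02 ± 0.303 CPM (SD, n = 3) and 0.642 ± 0.238 CPM (SD, n = 3). Over the livers *Cd79a* followed *Nkg7* (Pearson r 0.94, exact permutation p = 0.0167, adjusted p = 0.417; Spearman rho 0.89, exact permutation p = 0.0333; n = 6), with r 0.88 without the 2 livers farthest from the median. All correlations here are of log2(CPM + 0.5), belong to a family of 75 pairs of which 0 had an adjusted p under 0.05, and cannot be computed within a genotype of 3 livers.

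The antibody gene *Igkc* had nearly equal means in both genotypes and varied widely between mice of the same genotype. *Igkc* (ENSMUSG00000076609.2, chromosome 6, 70726435 to 70726966, plus strand) had 380, 305 and 167 reads in WT mice 1, 2 and 3 and 276, 95 and 391 reads in *Sirt7* KO mice 1, 2 and 3. Its highest and lowest livers, 37.7 and 10.1 CPM, were both *Sirt7* KO. The means were 24.1 ± 10.4 CPM (SD, n = 3) and 24.3 ± 13.8 CPM (SD, n = 3), with a log2 fold change of 0.02 (standard error 0.46). *Jchain* (ENSMUSG00000067149.6, chromosome 5, 88519809 to 88527891, minus strand) had 55, 46 and 19 reads in WT livers and 29, 12 and 43 in *Sirt7* KO livers. WT mouse 3 and *Sirt7* KO mouse 2 were the low livers, as for *Igkc*. Its log2 fold change was -0.33 (standard error 0.55).

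*Jchain* and *Igkc* ranked the livers alike, and *Ighm* did not. For *Jchain* and *Igkc* Pearson r was 0.96 (exact permutation p = 0.0167, adjusted p = 0.417) and Spearman rho 0.83 (exact permutation p = 0.0583) over 6 livers, and r was 0.67 without the 2 livers farthest from the median. *Ighm* (ENSMUSG00000076617.9, chromosome 12, 113418558 to 113422730, minus strand) had 99, 139 and 111 reads in WT livers and 126, 88 and 58 in *Sirt7* KO livers. Its highest liver was 2.26 times its lowest, against 3.74 times for *Igkc*. The means of *Ighm* were 9.73 ± 2.49 CPM (SD, n = 3) and 8.82 ± 3.01 CPM (SD, n = 3), with a log2 fold change of -0.14 (standard error 0.31). *Sirt7* KO mouse 3 was the highest liver for *Igkc* and the lowest for *Ighm*.

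The isotypes of the heavy chain differed from liver to liver, within each genotype. *Igha*, the α constant region, had 216, 201 and 46 reads in WT livers and 92, 41 and 336 in *Sirt7* KO livers. It was 45.0%, 50.4% and 20.1% of all heavy constant region reads in WT mice 1, 2 and 3, and 24.1%, 27.5% and 65.5% in *Sirt7* KO mice 1, 2 and 3. *Ighm* took 20.6%, 34.8% and 48.5% in WT livers and 33.1%, 59.1% and 11.3% in *Sirt7* KO livers. *Sirt7* KO mouse 3 had the highest *Igha* share and the lowest *Ighm* share, and both genes overlapped between genotypes. In CPM, *Igha* followed *Igkc* (Pearson r 0.94, exact permutation p = 0.00833, adjusted p = 0.417; Spearman rho 0.94, exact permutation p = 0.0167; n = 6), with r 0.91 without the 2 livers farthest from the median.

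**Figure D2:**
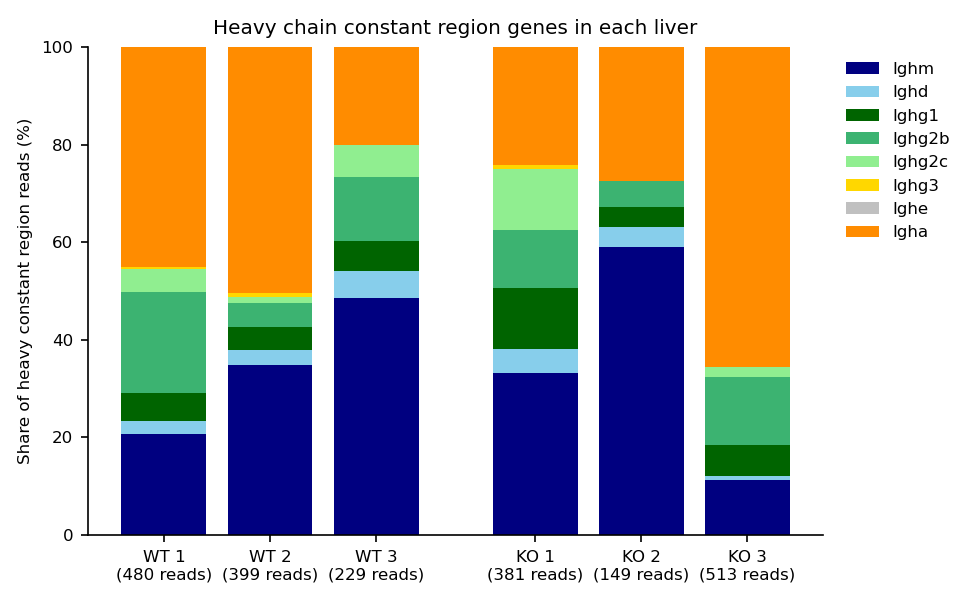
Share of each heavy chain constant region gene in the heavy constant region reads of each liver, in percent, with the number of those reads under each bar. *Igha* (orange) ranges from 20.1% in WT mouse 3 to 65.5% in *Sirt7* KO mouse 3, and *Ighm* (dark blue) from 11.3% to 59.1%.

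The γ isotypes also varied by mouse. *Ighg2b* had 99, 20 and 30 reads in WT livers and 45, 8 and 71 in *Sirt7* KO livers. *Ighg1* had 28, 19 and 14 reads in WT livers and 48, 6 and 33 in *Sirt7* KO livers. *Ighg2c* had 23, 5 and 15 reads in WT livers and 48, 0 and 11 in *Sirt7* KO livers. *Ighg2b* led in 5 livers and trailed both others in *Sirt7* KO mouse 1. *Ighg3* had at most 3 reads in any liver and *Ighe* had 0 of 149 to 513 heavy constant reads per liver. Within the switched isotypes, *Igha* held 58.7%, 81.0% and 43.8% of reads in WT livers and 39.0%, 74.5% and 74.5% in *Sirt7* KO livers. The difference of the means was 1.49 percentage points (two-sided exact permutation test, p = 1.0, where 3 livers against 3 cannot go below 0.1). The λ share of light chain constant reads was 5.94%, 5.86% and 23.0% in WT livers and 12.9%, 12.8% and 3.93% in *Sirt7* KO livers. It was highest in WT mouse 3 and lowest in *Sirt7* KO mouse 3, and *Iglv1* was the most abundant λ V segment in every liver.

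Reads of the switched isotypes lay on secreted forms. Each heavy chain gene has a transcript for a secreted chain and a longer one that ends in membrane exons. All 932 *Igha* reads, all 148 *Ighg1* reads and 97.9% of the *Ighg2b* reads were assigned to the secreted form. All 67 *Ighd* reads were assigned to the membrane form, the form of the B cell surface. *Ighm* was mixed, with 81.9%, 71.3% and 76.9% of its reads on the secreted form in WT livers and 83.4%, 72.3% and 63.9% in *Sirt7* KO livers. The secreted share of *Ighm* differed by -3.55 percentage points between the genotypes (two-sided exact permutation test, p = 0.7). Since the forms share all constant exons, Salmon divided most of these reads by estimate.

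V segment reads were concentrated on 1 segment in *Sirt7* KO mouse 3, although 49 kappa V segments had reads there against 28 to 48 in the other livers. In the other 5 livers the most abundant kappa V segment held 7.92% to 16.5% of the kappa V reads, and it was a different one in each. *Igkv3-2* led in WT mouse 1, *Igkv1-117* in WT mouse 2, *Igkv6-13* in WT mouse 3, *Igkv6-23* in *Sirt7* KO mouse 1 and *Igkv6-15* in *Sirt7* KO mouse 2. In *Sirt7* KO mouse 3 *Igkv1-135* (chromosome 6, 67609713 to 67610508) held 51.1% (exact 95% binomial interval 44.4% to 57.8%), while it had 3, 1 and 5 reads in WT mice 1, 2 and 3 and 0 and 5 reads in *Sirt7* KO mice 1 and 2. The interval of *Sirt7* KO mouse 3 lay wholly above those of the other livers, whose highest bound was 26.5%. The reads of *Sirt7* KO mouse 3 were spread as unevenly as over 3.71 equally used kappa segments (the inverse of the summed squared shares), against 16.6 to 28.3 elsewhere. Once *Igkv1-135* was set aside, the next segment of this liver, *Igkv10-96*, held 8.11% of the remaining 111 reads.

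The heavy chain showed the same liver. *Ighv1-19* (chromosome 12, 114708648 to 114709135) held 40.3% (exact 95% binomial interval 28.9% to 52.5%) of the heavy V reads of *Sirt7* KO mouse 3, and had 0, 3 and 1 reads in WT livers and 4 and 0 reads in *Sirt7* KO mice 1 and 2. In the other livers the most abundant heavy V segment held 9.84% to 16.7%. These were *Ighv1-62-3* in WT mouse 1, *Ighv1-53* in WT mouse 2 and *Sirt7* KO mouse 1, *Ighv7-3* in WT mouse 3 and, tied at 2 reads each, *Ighv5-16* and *Ighv10-1* in *Sirt7* KO mouse 2. With 15 to 72 heavy V reads per liver, the intervals of some livers reached up to 40.5% and overlapped that of *Sirt7* KO mouse 3. This concentration was seen in 1 mouse, and the genotypes did not differ by more than the spread between mice. The share of the top kappa segment differed by 15.4 percentage points between the means (two-sided exact permutation test, p = 0.2) and by 2.94 without *Sirt7* KO mouse 3. The share of the top heavy segment differed by 6.36 percentage points (two-sided exact permutation test, p = 0.9), and by -3.20 without *Sirt7* KO mouse 3. Whether the reads of both segments came from the same cells cannot be told from bulk RNA.

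**Figure D3:**
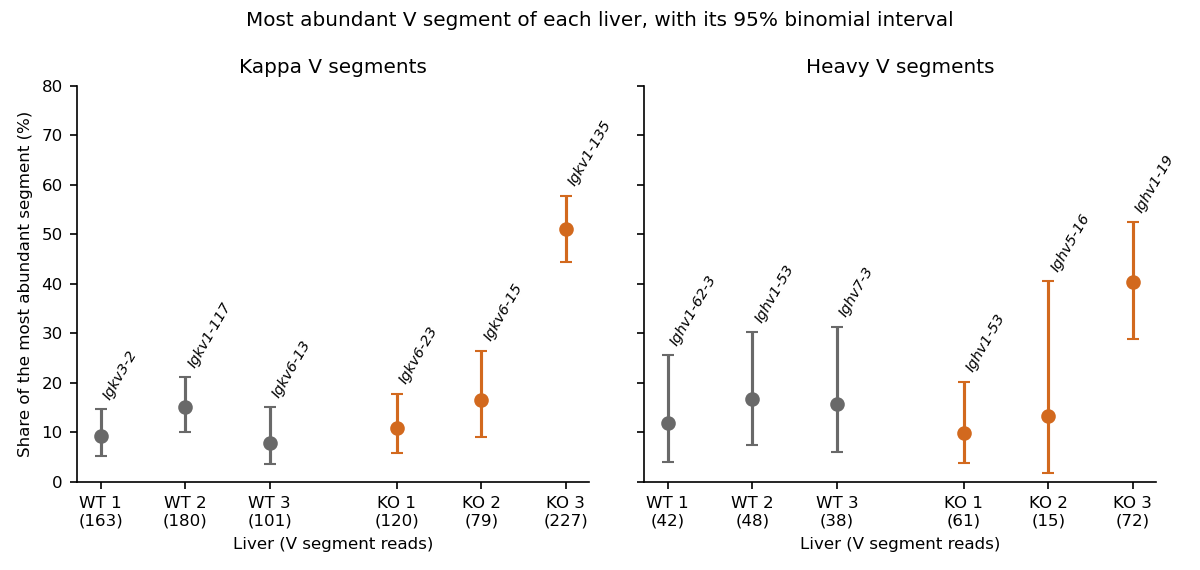
Share of the most abundant V segment among the kappa V reads (left) and the heavy V reads (right) of each liver, in percent, with exact 95% binomial intervals and the number of V reads under each liver (grey, WT; orange, *Sirt7* KO). *Sirt7* KO mouse 3 stands at 51.1% for *Igkv1-135* and 40.3% for *Ighv1-19*, and no other liver exceeds 16.7%.

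Blood and macrophage RNA also varied between the livers. The haemoglobin genes (4 genes) summed to 497, 358 and 284 CPM in WT livers and 697, 248 and 681 CPM in *Sirt7* KO livers. *Igkc*, *Jchain*, *Igha* and haemoglobin were all at their lowest in WT mouse 3 and *Sirt7* KO mouse 2, which did not hold for *Ighm* or the λ constant genes. For *Igkc* and haemoglobin Pearson r was 0.84 (exact permutation p = 0.0444, adjusted p = 0.666) and Spearman rho 0.66 (exact permutation p = 0.175) over 6 livers, but r was 0.22 without the 2 livers farthest from the median, so the relation rested on those livers. The part of retained blood in the antibody values was not tested. *Ptprc* instead followed *Clec4f*, a lectin of Kupffer cells, the macrophages of the liver, which was also chosen after its values were seen (Pearson r 0.82, exact permutation p = 0.0722, adjusted p = 0.902; Spearman rho 0.89, exact permutation p = 0.0333; n = 6; r 0.97 without the 2 farthest livers). All 13 Kupffer cell genes passed the filter, and they summed to 150, 162 and 406 CPM in WT livers and 358, 146 and 276 CPM in *Sirt7* KO livers, highest in the same WT mouse 3 and *Sirt7* KO mouse 1 as *Ptprc*. The part of Kupffer cells in the *Ptprc* values was not tested.

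**Figure D4:**
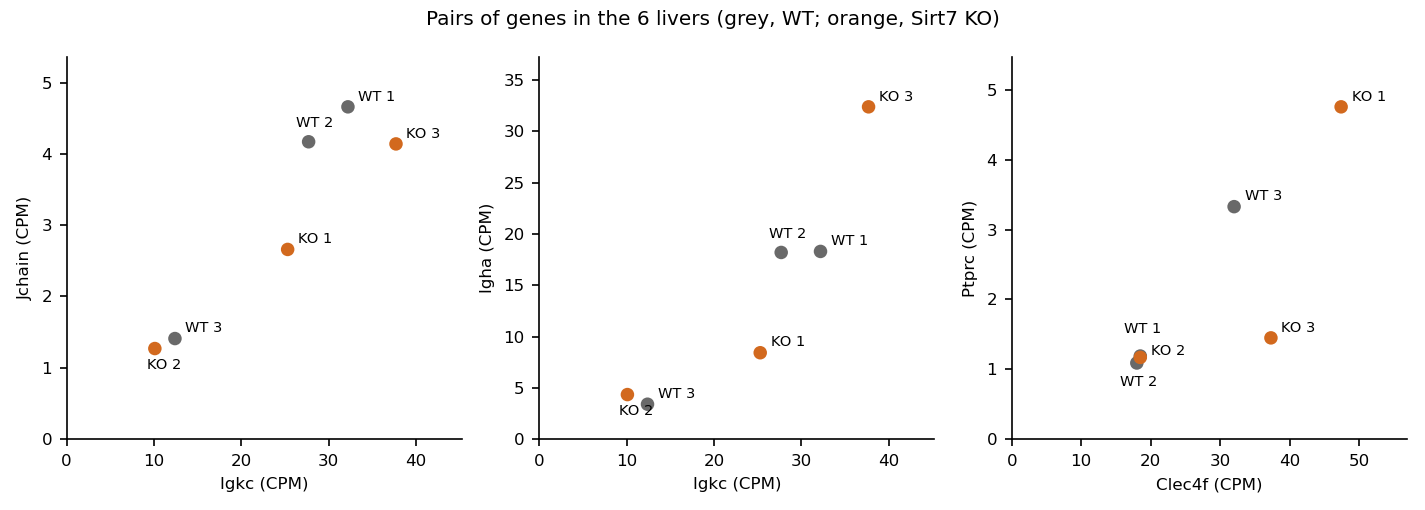
Levels in CPM of *Jchain* against *Igkc* (left), *Igha* against *Igkc* (middle) and *Ptprc* against *Clec4f* (right) in the 6 livers (grey, WT; orange, *Sirt7* KO). WT mouse 3 and *Sirt7* KO mouse 2 lie at the low end for the antibody genes, and WT mouse 3 and *Sirt7* KO mouse 1 hold the highest *Ptprc*.

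Across all tested genes, those whose profile was most like that of *Igkc* by Pearson r of log2(CPM + 0.5), immunoglobulin segments left out, were *Zc3h7b* (0.986), *Rbm15* (0.981), *Skp2* (0.98), *Gm6548* (0.98) and *Uap1l1* (0.974). For *Ptprc* they were *Vmn1r26* (0.993), *Relch* (0.991), *Prelp* (0.989), *Golga7* (0.989) and *Gmfb* (0.987). The search covered 12516 genes for *Igkc* and 12515 for *Ptprc* over 6 livers, and none of the 10 genes found is in the lymphocyte lists. With immunoglobulin genes left out, the tested genes of the plasma cell list, all constant regions, could not be found. Whether r values this high go beyond chance in so wide a search was not tested.

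Wider lists of lymphocyte genes held no gene called by the main test. A call needed an adjusted p under 0.05 and a fold change over 1.5. Of 115 further genes in 6 lists, 36 passed the filter and 0 of these were called by edgeR, where 0.00798% of all tested genes (1 of 12524) were. Without the filter, edgeR called 1 of these genes, *Tox* (log2 fold change -1.54), among 2.27% of 27881 genes. At an unadjusted p under 0.05, 1 was higher and 1 was lower in *Sirt7* KO livers, where 6.54% and 4.78% of all tested genes were, 11.3% in all. The median log2 fold change of the 36 was -0.08, with 14 above 0 and 22 below. DESeq2 gave a p for 110 of the 115 genes and called 0 of them, where it called 256 of all 27862 genes with a p. Only 14504 genes kept an adjusted p, of which 1.77% were called (1.87% of 12963 with transcript length as an offset). How many of the 110 kept an adjusted p was not counted. At an unadjusted p under 0.05 by DESeq2, 3 of the 110 passed, 1 higher and 2 lower. The 1 higher gene was of the B cell list by DESeq2 and of the T cell list by the main test, so it was not the same gene. Of the 36 tested genes, 2 had groups without overlap lower in *Sirt7* KO livers and 1 higher, where 16.8% of all tested genes were without overlap. Of the 79 genes below the filter, 5 had groups without overlap lower in *Sirt7* KO livers (*Trac*, *Cd6*, *Cd27*, *Tbx21* and *Cxcr5*) and 2 higher (*Xcl1* and *Derl3*). Together these were 8.86%, where 4.75% of all genes below the filter with at least 1 read were without overlap. Genes with 0 reads in every liver are among the 79 but not in that background. *Xcl1* had 1, 0 and 0 reads in WT livers and 1, 1 and 1 in *Sirt7* KO livers. *Derl3* had 1, 2 and 1 reads in WT livers and 10, 2 and 4 in *Sirt7* KO livers. For both, the highest WT count equalled the lowest *Sirt7* KO count, and only the scaling to library size parted the groups. Among the lower genes, *Cxcr5* had 3, 3 and 2 reads in WT livers and 0 in each *Sirt7* KO liver, within the 3 reads that a count of 0 allows. *Tbx21* had 8, 3 and 5 reads in WT livers and 0, 0 and 2 in *Sirt7* KO livers. *Cd6*, with 0 in each *Sirt7* KO liver, had 3 and 2 reads in WT mice 1 and 2. *Trac* and *Cd27* had reads in every liver. The 7 genes without overlap below the filter, and *Foxp3*, *Ctla4*, *Pdcd1*, *Prf1*, *Gzmb*, *Ms4a1*, *Prdm1*, *Irf4*, *Tnfrsf17*, *Tnfrsf13b* and *Mzb1*, were chosen after their values were seen.

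**Figure D5:**
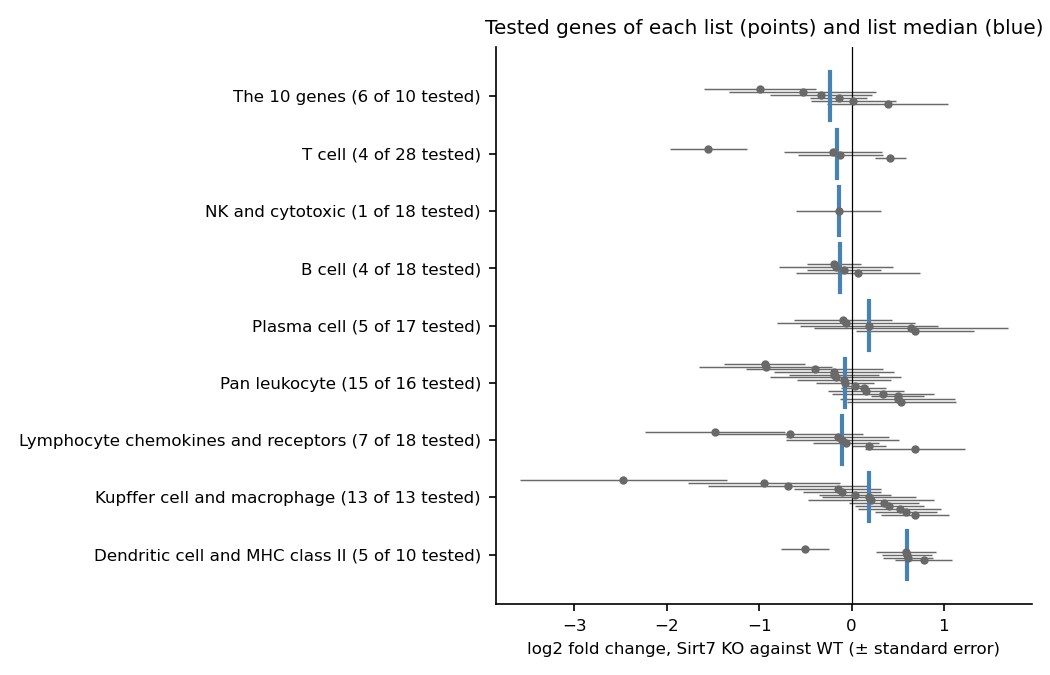
Log2 fold change of *Sirt7* KO against WT with its standard error for each tested gene of the lists, grouped by list, with the list median in blue and the number of tested genes beside each name. Medians of the lymphocyte lists lie between -0.16 (T cell) and 0.19 (plasma cell), and those of the Kupffer cell and MHC class II lists at 0.19 and 0.60.

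In the T cell list (28 genes, 4 tested), *Tox*, a nuclear factor of T cell development and exhaustion, had 108, 62 and 55 reads in WT livers and 14, 25 and 26 in *Sirt7* KO livers. The highest *Sirt7* KO liver lay under the lowest WT liver, with a log2 fold change of -1.55 (standard error 0.42, unadjusted p = 0.00505, adjusted p = 0.216 by edgeR's quasi-likelihood test). Which cells carried the *Tox* reads cannot be told from bulk RNA. *Zap70*, a kinase that acts behind the T cell receptor, was the most abundant gene of the list at a mean of 16.8 CPM and differed by 0.42 (standard error 0.17, unadjusted p = 0.0401, adjusted p = 0.405 by the same test). Of its reads, 95.6% were assigned to an isoform with a retained intron, and the coding isoform had 0 to 15.5 reads per liver. Salmon thus placed most of the *Zap70* level off the coding isoform, and where on the gene the reads fell was not analysed here. Below the filter, *Trac*, *Cd6* and *Cd27* had lower values in every *Sirt7* KO liver than in any WT liver. *Trac*, the constant region of the T cell receptor α chain, had 6, 5 and 10 reads against 2, 1 and 3. *Cd6*, a T cell surface receptor, had 3, 2 and 10 reads against 0 in each *Sirt7* KO liver, and *Cd27*, a co-stimulatory receptor, had 13, 14 and 12 reads against 6, 5 and 2. *Foxp3*, of regulatory T cells, had 1 read in all, and the checkpoint genes *Ctla4* and *Pdcd1* had 0 reads in every liver.

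The NK and cytotoxic list (18 genes) was near the detection limit, with 1 gene tested and 10 genes below 10 reads over all livers. *Il2rb*, a chain of the receptors for interleukins 2 and 15, differed by -0.14 (standard error 0.46, unadjusted p = 0.765 by edgeR). *Ctsw*, a protease of cytotoxic cells, had means of 0.803 ± 0.187 CPM (SD, n = 3) and 0.800 ± 0.425 CPM (SD, n = 3). Its groups overlapped. *Prf1*, the perforin gene, had 24 of its 32 reads in *Sirt7* KO mouse 1, and *Gzmb*, of granzyme B, had 18 of its 25 reads in WT mouse 3. These 2 genes, *Prf1* and *Gzmb*, thus had their highest reads in different livers.

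In the B cell list (18 genes, 4 tested), log2 fold changes ran from -0.19 to 0.07. *Ebf1*, a transcription factor of B cells that stromal cells also express, was the most abundant at 9.14 ± 2.84 CPM (SD, n = 3) for WT and 8.03 ± 1.71 CPM (SD, n = 3) for *Sirt7* KO. *Cd72*, a co-receptor of B cells, stood at 2.95 ± 0.876 CPM (SD, n = 3) and 2.77 ± 0.956 CPM (SD, n = 3). Both overlapped between genotypes. *Ms4a1*, which encodes CD20, had 2 to 14 reads per liver with a log2 fold change of 0.07 (standard error 0.67). In the plasma cell list (17 genes, 5 tested), the tested genes were all constant regions, with log2 fold changes from -0.09 for *Iglc1* to 0.69 for *Ighg1*. The standard errors were 0.53 to 1.05. The plasma cell factors *Prdm1* and *Irf4* had 0 to 2 reads per liver and *Tnfrsf17*, the receptor BCMA, had 0 in every liver. These genes were thus at or near 0 while antibody reads were present. Other genes of the list had more, with 28 reads over all livers for *Tnfrsf13b* and 20 for *Derl3*. Whether plasma cells were present was not tested. *Mzb1*, a chaperone of antibody assembly, had 0 to 6 reads per liver.

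The pan leukocyte list was the best measured, with 15 of 16 genes tested and a median log2 fold change of -0.07. *Lcp1*, an actin bundling protein, was the most abundant at 69.8 ± 3.79 CPM (SD, n = 3) for WT and 72.0 ± 8.89 CPM (SD, n = 3) for *Sirt7* KO. *Ptpn6*, the phosphatase SHP-1, stood at 17.6 ± 5.61 CPM (SD, n = 3) and 19.3 ± 1.41 CPM (SD, n = 3). Neither separated the genotypes. *Cd52*, a surface glycoprotein of lymphocytes chosen after its values were seen, had 66, 46 and 74 reads in WT livers and 43, 10 and 30 in *Sirt7* KO livers. Its groups did not overlap, but its log2 fold change of -0.94 (standard error 0.44) did not pass (unadjusted p = 0.0629, adjusted p = 0.47 by edgeR). Among the chemokines and receptors (18 genes, 7 tested, median -0.10), *Cxcl12* stood at 181 ± 26.0 CPM (SD, n = 3) for WT and 207 ± 39.1 CPM (SD, n = 3) for *Sirt7* KO. *Cxcl16* stood at 6.24 ± 1.38 CPM (SD, n = 3) and 5.96 ± 2.68 CPM (SD, n = 3). *Cxcr6*, the receptor of CXCL16 on liver lymphocytes and also chosen after its values were seen, differed by -1.48 (standard error 0.76, unadjusted p = 0.0794 by edgeR), and its groups overlapped.

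Markers of other cells were compared beside these lists. In the MHC class II list (10 genes with those of dendritic cells, 5 tested), *Cd74* stood at 69.5 ± 9.13 CPM (SD, n = 3) for WT and 106 ± 40.5 CPM (SD, n = 3) for *Sirt7* KO. *H2-Eb1* differed by 0.78 (standard error 0.31, unadjusted p = 0.0349, adjusted p = 0.389 by edgeR), with overlapping groups. Of the 5 tested genes, 4 had a log2 fold change above 0 and 1 below. The latter, *Zbtb46*, was chosen after its values were seen. It stood at 6.61 ± 0.975 CPM (SD, n = 3) for WT and 4.65 ± 0.726 CPM (SD, n = 3) for *Sirt7* KO, without overlap. Its log2 fold change was -0.50 (standard error 0.26, unadjusted p = 0.0855, adjusted p = 0.519 by edgeR). B cells, dendritic cells and macrophages express the MHC class II genes. An unadjusted p under 0.05 by edgeR was seen for 0 of the 4 tested B cell genes. It was seen for 0 of the 13 Kupffer cell and macrophage genes and for 11.3% of all tested genes. Such counts cannot tell which cells carried the MHC class II reads. The part of each cell type in the MHC class II values was not tested. *Alas2*, the heme synthesis enzyme of red cell precursors that the blood list holds, differed by 1.26 (standard error 0.29, unadjusted p = 0.0018, adjusted p = 0.166 by edgeR). The other marker lists, led by *Lyz2* (Kupffer cells), *Cxcr2* (neutrophils), *Clec4g* (sinusoidal endothelium), *Dcn* (stellate cells), *Spp1* (cholangiocytes) and *Alb* (hepatocytes), had 0 genes at an unadjusted p under 0.05 by edgeR. Of the 6 cell division genes, led by *Cdk1* with 6 to 21 reads per liver, 0 passed the filter.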

How the data were processed

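RNA-seq of liver from 3 WT and 3 *Sirt7* KO mice was read from a single end. Per the labels and methods, adaptors were removed with Trim Galore 0.6.5 and transcripts of GRCm38 quantified with Salmon 1.2.1. The authors deposited estimated counts of each transcript per mouse, not normalized, and TPM, scaled to transcript length and to 1000000 per library by the authors. The annotation release of the transcripts is not given in the sources used here. Estimated counts were summed per gene of GENCODE M21 and rounded. Of 140992 transcripts, 139172 matched by version and 619 by another version, and 1201 without a gene (0.303% to 0.492% of reads) were left out. Libraries of the same genotype differed by more than counting noise (chi-square per gene at least 15.8), so none was the same library deposited again. That they are separate mice rests on the labels. All reads of V, D, J and constant regions are Salmon's assignments among near-identical genes and are uncertain where sequences are shared.

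The main test was the quasi-likelihood F-test of edgeR 4.0.16 under R 4.3.3, after TMM scaling and filterByExpr (minimum count 10), with Benjamini-Hochberg adjustment over 12524 genes. Replicate numbers come from the labels. The deviations of same-numbered mice from their genotype means correlated at 0.065, 0.08 and -0.044, so the numbers did not pair the mice. Values per liver were compared by exact permutation with scipy 1.17.1. In counts simulated for this comparison on 12524 genes, edgeR found 81% of the 4-fold changes and 22% of the 2-fold changes, and 8.04% of its calls were false, while DESeq2 found 88% and 43% with 15.5% false calls. Depth was 9994860 to 13424776 reads per liver.

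The 10 genes and all lists were chosen with earlier results of these data known. Named are the 10 genes, from each lymphocyte list up to 4 genes with the smallest unadjusted p under 0.05 and the 2 with the highest mean CPM, from each other list the gene with the highest mean CPM and up to 2 with an unadjusted p under 0.05, the leading V segments of each liver, and the 5 genes most correlated with *Igkc* and with *Ptprc* (in place of *Cd3e*, which was not tested). Alternatives were RLE or total count scaling, no filter on low counts, DESeq2 1.42.0 with and without average transcript length offsets, the replicate number as a block, TPM for shares, an unadjusted p, and leaving out each mouse.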

Additional observations from a re-analysis of the deposited data

How the results depend on the processing

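The count of genes called over the whole table, 1 in the main test, depended on the processing. It was 2 with total count scaling, 633 without the filter on low counts, 256 with DESeq2, 242 with DESeq2 and length offsets, 925 at an unadjusted p with the same fold change, and 0 to 252 when 1 mouse was left out, with the 252 reached without *Sirt7* KO mouse 1. With the replicate number as a block it was 41, although the numbers did not pair the mice. Among the wider lymphocyte lists, the count of genes higher in *Sirt7* KO livers at an unadjusted p, 1 in the main test, was 0 with total count scaling, 0 with the replicate block and 0 to 2 when 1 mouse was left out. It was also 1 without the filter and with DESeq2, but there on a gene of the B cell list in place of the T cell list. The count of lower genes, 1 in the main test, was 2 with total count scaling, 5 without the filter, 2 with DESeq2, 3 with DESeq2 and length offsets, 2 with the replicate block and 1 to 3 when 1 mouse was left out. Total count scaling moved the median log2 fold change of all genes by -0.11. The causes were not tested.

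With 1 mouse left out, the genotype difference in the share of the top kappa segment ran from 2.94 to 23.1 percentage points, that of the top heavy segment from -3.20 to 12.0, that of *Igha* among switched isotypes from -7.20 to 13.3 and that of the secreted form of *Ighm* from -8.64 to 1.10. The reversals came without *Sirt7* KO mouse 3 for the heavy segment and for *Ighm*, and without WT mouse 3, *Sirt7* KO mouse 2 or *Sirt7* KO mouse 3 for *Igha*. Log2 fold changes of the 6 tested genes took the other sign in 9 of 72 alternatives, for *Ighm*, *Igkc*, *Jchain* and *Ptprc*, while *Nkg7* and *Ccl5* stayed below 0 in all of theirs, from -1.80 to -0.64 and from -1.24 to -0.16 when 1 mouse was left out. Genes below 10 reads per liver are limited by depth.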
